A study of Homo sapiens with 2 samples.

Results

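The transcripts described here are those of DDX3X itself, the gene whose protein was precipitated. They were chosen by transcript ID: 6 IDs of the hg19 UCSC Known Genes set are isoforms of DDX3X, and all 6 were present among the 68731 transcripts of the deposited tables (uc004dfe.2, uc004dff.2, uc004dfg.2, uc011mkq.1, uc011mkr.1 and uc011mks.1). The tables give no gene symbols, so the assignment of these IDs to DDX3X rests on that list. The libraries were DDX3X CLIP-seq, in which ultraviolet light crosslinks RNA to the protein, a custom rabbit polyclonal antibody precipitates it and the bound RNA is sequenced. The cells were HEK293FT, an established human embryonic kidney line, labelled wild type and at rest in DMSO, the solvent control for thapsigargin; another label field gives the same samples as untreated. The group held 2 replicate libraries, with 19307022 counts in replicate 1 and 11238842 counts in replicate 2. Libraries of thapsigargin-treated cells, input RNA and a control precipitation were not analysed here, so no contrast between conditions was made. The number of reads on a transcript reflects its abundance, its recovery with the protein and any RNA carried over without the protein. These cannot be told apart here. The labels do not say whether the replicates came from separate cultures, so the spread between them may be technical. Markers of the cell line were not evaluated, because the IDs of other genes are not paired with symbols.

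DDX3X is a DEAD-box RNA helicase, a family of enzymes that use ATP to unwind short RNA duplexes and to remodel complexes of RNA and protein. It is known for a part in translation initiation, where it helps mRNAs with structured leaders to be translated, and for its presence in stress granules, which assemble when translation is blocked. Some RNA-binding proteins bind the mRNA of their own gene; the counts here describe how many reads of DDX3X were recovered and do not by themselves separate binding from abundance. In the RefSeq annotation (assembly GRCh38.p14) DDX3X lies on the forward strand of chromosome X at chrX:41333308-41364472, a span of 31165 bases. RefSeq lists 7 transcripts for it, of which 4 are curated coding, 2 are curated noncoding and 1 is a predicted coding model. The gene has 3 annotated start sites there, at positions 41333308, 41334162 and 41334166. None of the 6 UCSC IDs appears in that annotation table, so no ID was paired with a RefSeq transcript. A closely related paralog, DDX3Y, lies on the Y chromosome. How the authors' counting treated reads that fit both genes is not given in the sources used here.

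All 6 DDX3X transcripts were recovered at high read numbers in both libraries. The longest, uc004dfe.2, had 6889 counts in replicate 1 and 4535 in replicate 2. Scaled to counts per 1000000 of the library (CPM), that is 356.8 (Wilson 95% interval 348.5 to 365.3) and 403.5 (391.9 to 415.4), with a mean of 380.2 ± 33.0 CPM (SD, n = 2). These intervals do not overlap, but they treat every read as independent. Amplified copies are not independent molecules, so the intervals may be too narrow even for counting error. uc004dff.2 had the same counts as uc004dfe.2 in both libraries. uc011mkq.1 had 6866 and 4522 counts, a mean of 379.0 ± 33.0 CPM (SD, n = 2). uc011mkr.1 had 6602 and 4405 counts, a mean of 366.9 ± 35.4 CPM (SD, n = 2). The read numbers of these 4 transcripts lay within a few percent of one another, and their ranges over the libraries overlap.

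The 2 shorter transcripts had fewer reads. uc011mks.1 had 6213 counts in replicate 1 and 4172 in replicate 2, a mean of 346.5 ± 34.9 CPM (SD, n = 2). uc004dfg.2 was the lowest, with 5458 and 3494 counts and a mean of 296.8 ± 19.9 CPM (SD, n = 2). Its libraries, at 282.7 and 310.9 CPM, lay below both libraries of every other DDX3X transcript, the nearest being the 321.8 CPM of uc011mks.1 in replicate 1. The highest mean exceeded the lowest 1.28-fold. The order of the 6 by count was the same in both libraries. All transcripts were measured in the same 2 libraries, so their values are paired within library. With 2 libraries an exact permutation test cannot reach 0.05, and the transcripts can share reads, so no test was made between them.

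**Figure D1:**
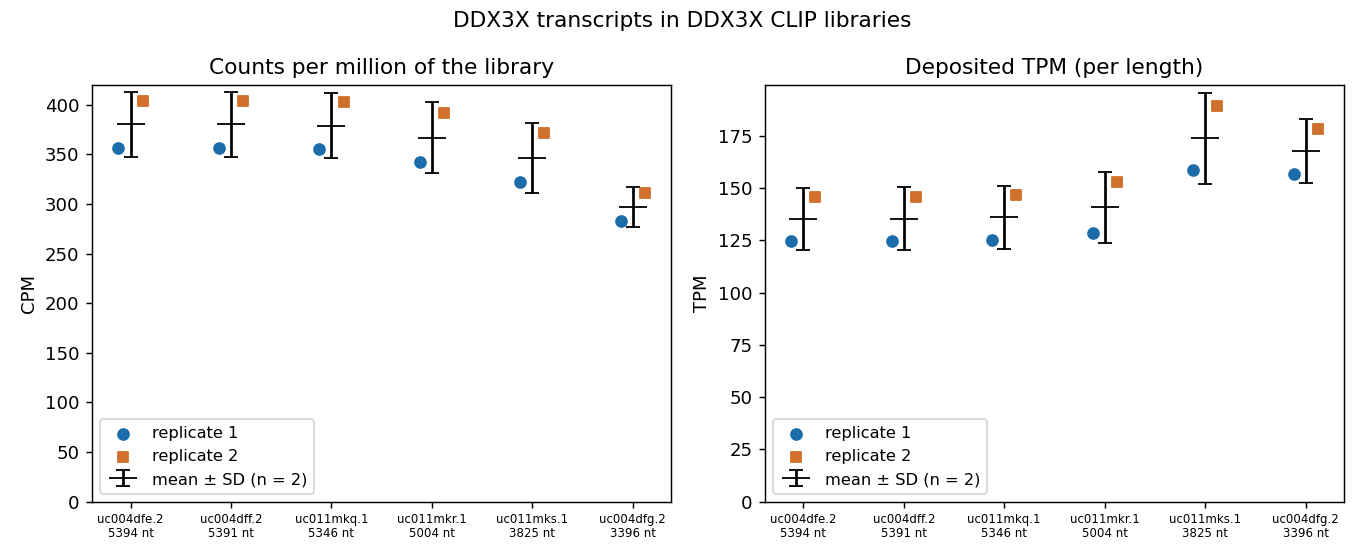
Level of each DDX3X transcript in CPM (left) and in the deposited TPM (right), ordered from the longest to the shortest, with points for the replicates and bars for the mean ± SD (n = 2). The left panel falls from 380.2 to 296.8 CPM with decreasing length, the right panel is higher for the 2 shorter transcripts, and replicate 2 is above replicate 1 for all 6 in both panels.

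The authors' TPM divides each count by a transcript length, and dividing count by TPM therefore returns that length. The 6 lengths were 5394 nt for uc004dfe.2, 5391 nt for uc004dff.2, 5346 nt for uc011mkq.1, 5004 nt for uc011mkr.1, 3825 nt for uc011mks.1 and 3396 nt for uc004dfg.2. Each was the same whole number in both libraries. The isoforms thus fell into 4 long forms and 2 short ones, the longest being 1.59 times the shortest. All 6 lengths are multiples of 3, and so every difference in length between them is one too. Of the 46395 transcripts that reached a sum of 10 reads over the libraries, 33.0% had such a length. Isoforms of the same gene are not independent draws, so the 6 cannot be set against that share as a test. Whether the differing stretches are coding was not evaluated, since no transcript sequence was used here.

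Per length, the order of the isoforms turned over, except that uc011mks.1 stayed above uc004dfg.2. The TPM of uc004dfe.2 was 124.6 in replicate 1 and 145.8 in replicate 2, a mean of 135.2 ± 15.0 (SD, n = 2). uc004dff.2 and uc011mkq.1 stood beside it at means of 135.2 ± 15.0 and 136.0 ± 15.1 TPM (SD, n = 2), and uc011mkr.1 was at 140.7 ± 16.9 TPM (SD, n = 2). The short forms were higher per length, which need not mean more molecules if a read is counted for several isoforms. uc004dfg.2 had 156.7 TPM in replicate 1 and 178.4 in replicate 2, a mean of 167.6 ± 15.3 (SD, n = 2), and uc011mks.1 had 158.4 and 189.1 TPM, a mean of 173.8 ± 21.7 (SD, n = 2). Every value of the 2 short forms lay above every value of the 4 long ones, the closest pair being 156.7 TPM of uc004dfg.2 in replicate 1 and 152.6 TPM of uc011mkr.1 in replicate 2. The short forms overlapped each other, as did the long forms. Within each library the order by TPM was the same for all 6 transcripts.

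The short forms had most of the reads of the long forms over much less length. uc011mks.1 is 1569 nt shorter than uc004dfe.2, or 29.1% of its length, but had only 676 fewer counts in replicate 1 and 363 fewer in replicate 2. That difference amounts to 430.8 counts per kb in replicate 1, against 1277 per kb over the whole of uc004dfe.2. In replicate 2 the corresponding values were 231.4 and 840.7 counts per kb. uc004dfg.2 is 1998 nt shorter, 37.0% of the length, and had 1431 fewer counts in replicate 1 (20.8%) and 1041 fewer in replicate 2 (23.0%), or 716.2 and 521.0 counts per kb. The differences were therefore poorer in reads than the transcript as a whole in both libraries, by a factor of 0.34 and 0.28 for uc011mks.1 and of 0.56 and 0.62 for uc004dfg.2. These are differences of totals: the extra sequence of a long form was not located, and a short form may also hold sequence that the long form lacks.

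Smaller steps in length were read in the same way. The counts per kb of a difference fall below those of the longer form whenever the shorter form has the higher TPM. These values and those above thus restate the TPM order and are no further evidence. uc004dff.2 is 3 nt shorter than uc004dfe.2 and lost no count, but a read can span so short a stretch and count for both. uc011mkq.1 is 48 nt shorter and had 23 fewer counts in replicate 1 and 13 fewer in replicate 2. uc011mkr.1 is 390 nt shorter, with 287 and 130 fewer counts, or 735.9 and 333.3 counts per kb. Each of these differences that held reads was below the 1277 and 840.7 counts per kb of uc004dfe.2. The step between the short forms went the other way: uc011mks.1 is 429 nt longer than uc004dfg.2 and had 755 more counts in replicate 1 and 678 more in replicate 2. That is 1760 and 1580 counts per kb, above the 1624 and 1091 counts per kb over the whole of uc011mks.1.

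**Figure D2:**
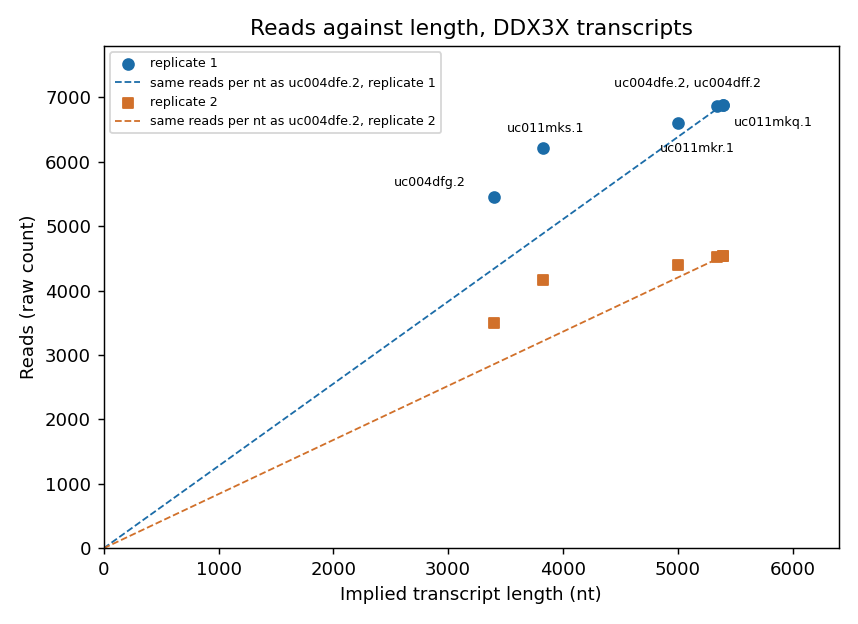
Raw counts of the 6 DDX3X transcripts against their implied length in nt, with circles for replicate 1, squares for replicate 2 and dashed lines through the origin at the counts per nt of uc004dfe.2. The 2 short forms, uc011mks.1 and uc004dfg.2, lie above the line of their library in both replicates, while the 4 long forms lie near it.

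The isoforms were also compared by the ratio of their counts to those of uc004dfe.2. The counts of uc011mkq.1 were 99.7% of those of uc004dfe.2 in both replicates. Those of uc011mkr.1 were 95.8% in replicate 1 and 97.1% in replicate 2, a mean of 96.5% ± 0.919 (SD, n = 2). For uc011mks.1 the ratios were 90.2 and 92.0%, a mean of 91.1% ± 1.28 (SD, n = 2), and for uc004dfg.2 they were 79.2 and 77.0%, a mean of 78.1% ± 1.54 (SD, n = 2). The ratio was thus lower in replicate 1 for uc011mkr.1 and uc011mks.1 and higher in replicate 1 for uc004dfg.2, and the order of the transcripts was the same in both. The deposited tables do not show whether an isoform's reads are a subset of another's, so no counting interval is attached to these ratios. Because 1 read may be counted for several isoforms, the 6 counts were not added up, and the gene is represented below by uc004dfe.2.

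Set against all transcripts, DDX3X stood near the top of the reads recovered in the precipitation of its own protein. By mean CPM uc004dfe.2 ranked 106th among those 46395 transcripts, so that 0.226% of them were higher. It ranked 114th in replicate 1 and 99th in replicate 2. The other DDX3X transcripts ranked from 106th to 192nd. The median transcript had 8.97 CPM. Because a long transcript collects more reads, uc004dfe.2 was also ranked among the 2944 transcripts within 10% of its length, from 4855 to 5933 nt. In that window 1 transcript had a higher mean: uc002xet.2, at 393.4 CPM (384.7 in replicate 1 and 402.1 in replicate 2). uc004dfe.2 ranked 2nd in replicate 1 and 1st in replicate 2, and the ranges of the 2 transcripts overlap. The median of the window was 12.1 CPM, and uc004dfe.2 lay 31.5-fold above it. The 99th percentile was 198.4 CPM.

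**Figure D3:**
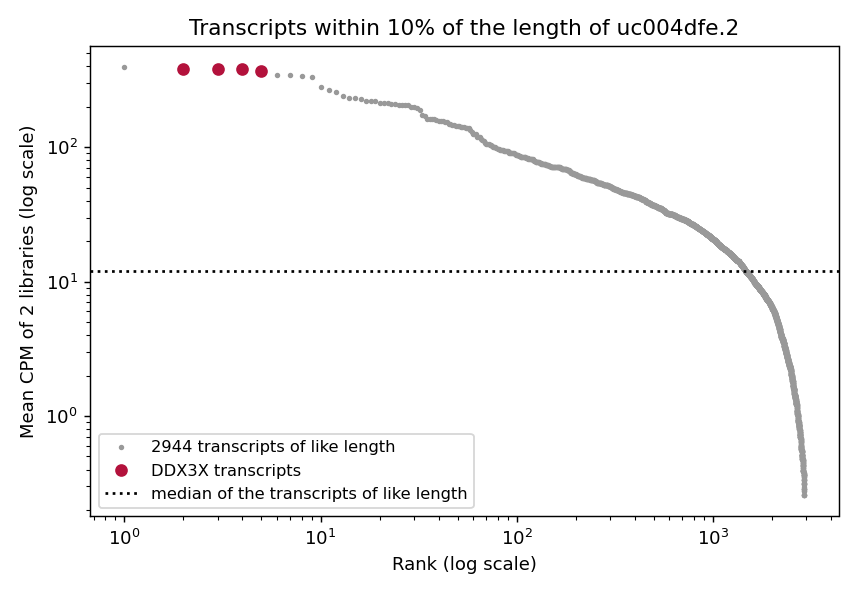
Mean CPM of the 2 libraries against rank, both on log scales, for the 2944 transcripts within 10% of the length of uc004dfe.2 of those with 10 or more summed reads. The 4 long DDX3X transcripts follow directly after the first transcript, uc002xet.2, and lie far above the median of 12.1 CPM (dotted line).

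The short forms were likewise compared with transcripts of their own length. uc011mks.1 ranked 11th of 4915 transcripts within 10% of its length and stood 32.1-fold above their median. uc004dfg.2 ranked 19th of 5451 and stood 31.6-fold above the median. The percentage of transcripts above them was 0.203% for uc011mks.1 and 0.330% for uc004dfg.2, larger than the 0.034% for uc004dfe.2. The 6 folds over the respective medians lay between 30.0 and 32.1. Per length over the whole table, the DDX3X transcripts were less extreme: uc004dfe.2 ranked 1090th by mean TPM, with 2.35% of transcripts higher, and uc011mks.1, at 173.8 TPM, ranked 796th, with 1.71% higher. The median transcript had 6.58 TPM, so the 6 lay between 20.5 and 26.4 times above it. For scale, the transcript with the highest mean CPM of all, uc010ail.2, had 686.3 ± 84.7 TPM (SD, n = 2), which is 3.95 times the TPM of uc011mks.1. By mean TPM uc010ail.2 itself ranked only 94th, so this fold is not the distance to the top per length.

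All 6 DDX3X transcripts had a larger share of the library in replicate 2 than in replicate 1. Replicate 1 held 60.3% of the summed reads of uc004dfe.2 (Wilson 95% interval 59.4 to 61.2%), against 63.2% of all reads. The log2 ratio of replicate 1 over replicate 2 was -0.18 for uc004dfe.2, uc004dff.2 and uc011mkq.1, -0.20 for uc011mkr.1, -0.21 for uc011mks.1 and -0.14 for uc004dfg.2. A two-sided exact binomial test against the library-wide split, with Benjamini-Hochberg adjustment over the 46395 transcripts, gave adjusted p-values from 3.9e-11 for uc011mks.1 to 6.8e-05 for uc004dfg.2. All 6 thus departed from the library-wide split by more than the noise of independent reads, but so did 48.6% of all transcripts. These were made up of 25.0% that were higher in replicate 2, like DDX3X, and 23.6% that were lower there. Amplified copies are not independent, so the test cannot show a departure beyond the true counting noise. Of the 680 transcripts with 5000 or more summed reads, 71.8% departed, 27.8% towards replicate 2. The test compares these libraries with the noise of independent reads, not conditions, and since isoforms can share reads the 6 calls may not be independent.

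The departure was also set against the spread between the replicates at like read numbers. The SD of the log2 ratio was 0.19 over the 155 transcripts with 10000 or more reads and 0.22 over the 525 from 5000 to under 10000 reads. Over the 680 transcripts of both classes the quartiles of the log2 ratio were -0.09 and 0.19, so all 6 DDX3X transcripts lay below the lower quartile. Each transcript's squared distance from that split, in units of the variance that independent reads would give, was 41.4 for uc004dfe.2 and at most 51.0 for the 5 DDX3X transcripts of 10000 or more summed reads, where the mean over the 155 transcripts of that class was 90.6. For uc004dfg.2 it was 19.3, where the mean over the 525 transcripts from 5000 to under 10000 reads was 38.2. With the binomial variance multiplied by these class means, 0.00% of all transcripts and none of the 6 were called after Benjamini-Hochberg adjustment, with adjusted p-values of 0.976 to 0.977 for the 6. At an unadjusted p under 0.05 this setting called 2230 of the 46395 transcripts and 0 of the 6. The class means came from the same squared distances that they scale, so this setting calls few transcripts largely by construction. With so small a share of all transcripts called, none called among 6 isoforms of 1 gene says little about DDX3X. The 28 other transcripts within 10% of the length of uc004dfe.2 and within 2-fold of its reads had a median log2 ratio of -0.11 with quartiles of -0.47 and 0.19, and 11 of them had a lower ratio than uc004dfe.2. For uc004dfg.2 there were 65 such transcripts with a median of -0.12, of which 29 were lower.

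The biological coefficient of variation, edgeR's measure of relative spread between replicates beyond counting, was 0.130 at the read number of uc004dfe.2 and 0.131 at that of uc004dfg.2. Over all 46395 transcripts the median of the values set by read number was 0.268, and the common value was 0.319. The SD of the 6 DDX3X transcripts was 6.72 to 10.1% of their mean CPM. edgeR sets the first of these values mainly by read number, so transcripts with as many reads have about the same one.

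**Figure D4:**
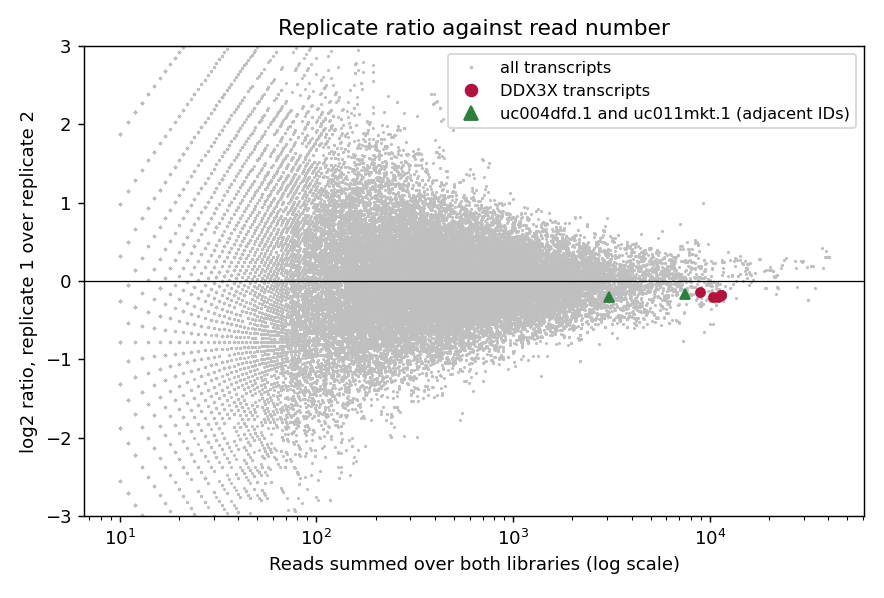
Log2 ratio of CPM in replicate 1 over replicate 2 against summed reads (log scale) for 46395 transcripts in grey. The 6 DDX3X transcripts are circles, and the 2 well-read transcripts of adjacent ID, uc004dfd.1 and uc011mkt.1, are triangles. Beyond the range of the axis lie 1389 transcripts. The DDX3X transcripts sit between -0.21 and -0.14, in the lower part of the range of transcripts with as many reads.

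The transcripts whose IDs directly precede or follow those of DDX3X were looked up after the values were seen. The deposited tables do not say to which gene they belong. Of the 4, 2 had few reads: uc004dfh.2 had 1 count in each library, and uc011mkp.1 had 39 counts in replicate 1 and 3 in replicate 2. The other two were well read. uc004dfd.1, of 1837 nt, had 4520 and 2949 counts, and at 259.2 ± 27.1 TPM (SD, n = 2) it lay above all 6 DDX3X transcripts in both libraries. uc011mkt.1, of 1663 nt, had 1833 and 1226 counts and 117.7 ± 14.4 TPM (SD, n = 2). The log2 ratios of uc004dfd.1 and uc011mkt.1 between the replicates were -0.16 and -0.20, in the range of the DDX3X transcripts. Those of uc011mkp.1 and uc004dfh.2, at their few reads, were 2.72 and -0.78, outside that range. The 128 and 408 transcripts alike in length and reads to uc004dfd.1 and uc011mkt.1 had medians of 0.03 and 0.07. Of these, 14 of 128 lay below the ratio of uc004dfd.1 and 71 of 408 below that of uc011mkt.1. Whether either belongs to DDX3X was not tested.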

How the data were processed

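CLIP-seq of DDX3X was analysed in 2 replicate libraries of 1 group. Per the submitters' processing notes, cutadapt 4.1, STAR 2.7.0d and build hg38 were used. The counting program, the annotation version and the treatment of duplicates and of reads shared by transcripts are not given in the sources used here. The authors deposited raw counts (whole numbers per UCSC transcript ID) and TPM values, per the file headers. The column headers name the replicate and not the treatment. If a read is counted for each isoform it overlaps, isoforms that share most of their sequence can have nearly equal counts, and TPM is not a share of molecules.

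From these files CPM, ranks and implied lengths were computed. The scale of count over TPM that made all 57721 lengths whole left a largest distance of 5.1e-10. A length reduced by a constant before the division cannot be told apart. Log2 ratios had 0.5 counts added. Ranks and tests used transcripts with at least 10 summed reads. edgeR 4.0.16 (TMM, intercept alone), DESeq2 1.42.0 size factors and scipy 1.17.1 were used; with 1 group there is no contrast. The adjusted threshold was 0.05. The scripts were tested on simulated data. Where no read was seen, up to 3 counts are allowed, which is 0.155 CPM (replicate 1) or 0.267 CPM (replicate 2).

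All 6 members, and the transcript highest in mean CPM, were named by rule; adjacent IDs and uc002xet.2 were named after their values were seen. The members, lists and tests were chosen with earlier results of these data known. Other genes of the pathway, cell line markers and transcripts of like pattern were not evaluated, because the IDs are not paired with symbols and 2 libraries give no pattern.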

Additional observations from a re-analysis of the deposited data

How the results depend on the processing

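The level of uc004dfe.2 (380.2 CPM) stayed at 379.9 with TMM and 380.0 with DESeq2 scaling, and was 403.5 without replicate 1 and 356.8 without replicate 2. Both scalings shift the 2 libraries in opposite directions, so the mean over them can change little by construction. The share of transcripts above it, 0.226%, became 2.35% ranked by TPM, 0.153% with no minimum of reads, 0.269% with at least 50 reads and 0.171% with 1 transcript kept per run of near-equal consecutive IDs, and ranged from 0.211 to 0.244% with 1 replicate left out. The 2 other minimums change only the number of transcripts ranked. Among transcripts of like length the share above it was 0.034%, ranged from 0.0 to 0.034% with 1 replicate left out, and was 0.017% in a length window of 20% and 0.045% with 1 transcript per run. The number of DDX3X transcripts that departed from the library-wide split was 6 under TMM scaling, DESeq2 scaling and both other minimums. Of all transcripts tested, 48.7% departed under TMM scaling, 48.7% under DESeq2 scaling, 49.7% with at least 50 reads and 39.1% with no minimum. Counts added before the log2 ratio do not enter that test, so with 5 counts added the 6 calls are the same by construction. The number of DDX3X transcripts was 0, as was that of all transcripts, with the variance multiplied by the mean deviation of the read range. There all 6 log2 ratios kept their values by construction. The adjusted p of uc004dfg.2, the largest of the 6, ranged from 6.3e-05 to 0.0062 under the settings that kept it. The coefficient of variation of 0.130 was 0.127 with at least 50 reads and 0.132 with 1 transcript per run. The ratio of uc004dfg.2 to uc004dfe.2 in counts, 78.1%, was 77.0 or 79.2% in 1 replicate and 124.1% for TPM, which divides by length. Lengths were the same from either replicate. No paired analysis between conditions was possible because there is only 1 group of samples. With 2 libraries, spread is known only roughly, and the depth sets no limit at these read numbers.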
